A study of Mus musculus with 22 samples.

Results

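The loci described here are those whose total liver RNA was at least 2-fold lower 4 h after tunicamycin (Tm) than in the 0 h group. They were chosen on group means: among 9383 base loci with a mean of at least 50 fragments over the 6 groups, 215 (2.29%) had a log2 difference of -1 or less at 4 h and a log2 difference under 1 at 2 h, out of 39897 loci in the table. The total RNA means at 0 h, 2 h and 4 h therefore set the membership, and everything given below on those means is a description of what was chosen, with no test. A locus is a transcribed unit as the authors' quantification numbered it, and the files give neither its gene name nor its position, so the loci are named by number and no gene list, liver marker or sequence could be looked up.

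Total RNA and heavy polysomal RNA (fractions with more than 3 ribosomes) were sequenced from livers of C57BL/6 male mice aged 5 weeks. Tm was given at 0.1 mg/kg by intraperitoneal injection at 8 in the morning, and livers were taken at 10 for the 2 h group and at 12 for the 4 h group, while the 0 h mice were culled at 9. In the methods the 0 h mice are controls, with no statement on whether they were injected, although tunicamycin stands in their labels too. The time since Tm and the time of day cannot be told apart. There were 3 total RNA libraries at each time and 3 polysomal ones at 4 h. At 0 h and 2 h the table has 3 polysomal read groups for 2 labelled libraries, and therefore only the authors' group means were used there, without an error. The libraries held from 9788578 to 17283500 counted fragments. Levels are given below as scaled fragments, that is fragments divided by the authors' library size factor, unless FPKM is named.

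As background, Tm blocks N-linked glycosylation and loads the endoplasmic reticulum with misfolded proteins. The unfolded protein response then has a translational arm, in which phosphorylation of eIF2α slows initiation, and transcriptional arms through IRE1 and ATF6. IRE1 is an endonuclease that can also cleave mRNAs at the ER membrane. The level of an mRNA drops when its synthesis slows or its decay speeds up, and an RNA with a short lifetime follows a change in synthesis sooner than a stable one. In whole liver, fewer cells of a type and less RNA per cell cannot be told apart. mRNA in heavy polysomes is taken to be actively translated, so the polysomal level depends both on how much mRNA there is and on how much of it carries many ribosomes.

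The 215 loci were lower in total RNA at 4 h by a median of -1.24 on the log2 scale, with a range from -4.60 to -1.01. The median of the base loci was 0.02. For comparison, 2.39% of the base loci were at least 2-fold lower at 4 h before the limit at 2 h was applied. Falls just past 2-fold were the most frequent: 96 of the 215 loci had a log2 difference above -1.2, and 18 had one of -2 or less. All 3 libraries at 4 h lay below all 3 at 0 h for 208 of the 215 loci, against 21.9% of the base loci. By edgeR's quasi-likelihood test, 207 of the 214 members tested were called lower at 4 h (adjusted p under 0.05 and at least 2-fold), where 3.47% of all 12606 loci tested were called. The rule used this contrast, so these counts describe how far apart the libraries were and carry no further weight. The member that was not tested, XLOC_017770, had no complete estimate in 1 library.

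Each 4 h library showed the difference. In the 3 libraries at 4 h all 215 loci were below their 0 h mean, and the median member was at -1.16, -1.36 and -1.37. In the 3 libraries at 2 h it was at -0.14, -0.23 and -0.05, with 134, 153 and 114 of the loci below the 0 h mean. The median of the base loci was at most 0.02 in these 6 libraries. At 0 h the 215 loci took 3.07%, 4.63% and 4.33% of all counted fragments. They took 4.65%, 3.48% and 5.14% at 2 h and 1.67%, 1.34% and 1.47% at 4 h, so the share was lower in each 4 h library than in any other. The 3 members with the highest means alone held from 1.07% to 2.10% at 0 h and from 0.488% to 0.605% at 4 h.

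**Figure D1:**
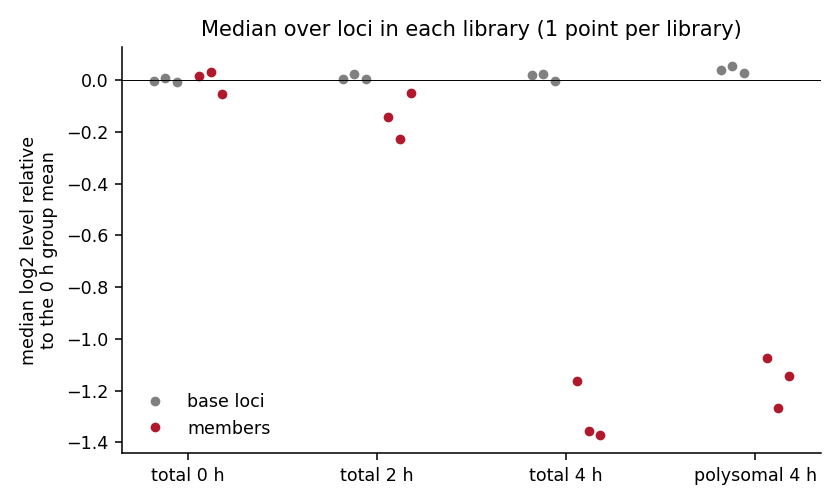
Median log2 level of the 215 members (red) and of the 9383 base loci (grey) in each library, relative to the mean of the 0 h group of the same RNA fraction; each point is 1 library and the y axis is in log2 units. The members' points lie between -1.16 and -1.37 in total RNA at 4 h and between -1.08 and -1.27 in polysomal RNA at 4 h, while the base loci lie near 0.

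**Figure D2:**
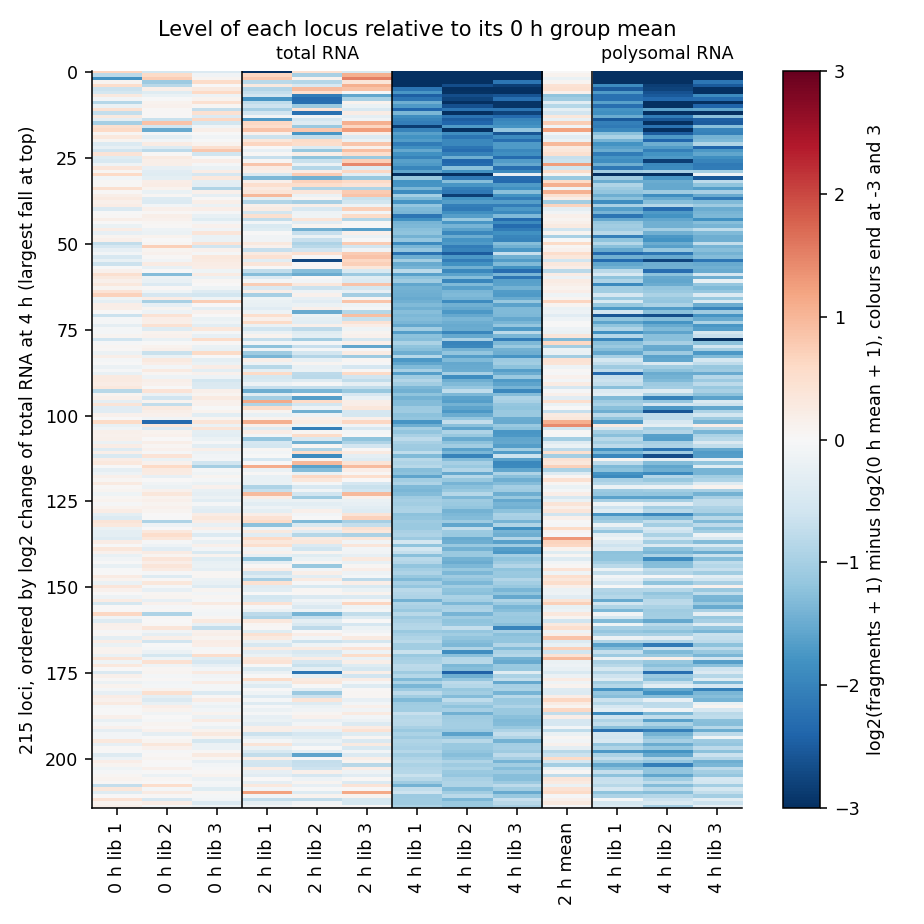
Log2 level of each of the 215 members (rows, ordered by the total RNA difference at 4 h) in 9 total libraries, in the polysomal 2 h group mean and in 3 polysomal 4 h libraries (columns), relative to the 0 h mean of the same fraction; colours end at -3 and 3. Blue fills the 4 h columns of both fractions, while the 2 h columns are mixed.

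The largest difference belonged to XLOC_001822, which had 291, 130.3 and 140.5 scaled fragments at 0 h, 9.47, 259.6 and 135 at 2 h, and 4.28, 10.6 and 5.46 at 4 h. Its 4 h mean was 24.2-fold lower. One of the 2 h libraries was already at the 4 h level while the other two were in the range of 0 h. XLOC_002546 had 73.5, 192 and 121 fragments at 0 h, 203, 65.4 and 273 at 2 h, and 14.5, 2.45 and 4.55 at 4 h, a 15.9-fold lower mean. Here the 2 h libraries spanned the whole 0 h range and the 4 h libraries were far below it.

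XLOC_032037 combined a large difference with a very high level. It had 12547, 72108 and 45873 fragments at 0 h, 76810.1, 47170.2 and 123437 at 2 h, and 3840.3, 1118 and 4239 at 4 h. The 0 h libraries differed widely among themselves, yet no 4 h library reached any 0 h or 2 h library. With a mean FPKM (fragments scaled by transcript length and sequencing depth) of 6467 ± 4425 at 0 h and 472 ± 268 at 4 h (SD, n = 3 libraries), it also had the highest level per length among the members. Its polysomal log2 difference at 4 h, -5.33, was the lowest among the members. The polysomal group means were 100831 at 0 h, 87967 at 2 h and 2508 at 4 h.

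Among the 5 next in size, XLOC_015743 had 167, 73.9 and 232 fragments at 0 h against 17.1, 5.73 and 33.7 at 4 h. XLOC_034729 had 186, 72.1 and 130.0 against 15.4, 19.6 and 17.3. XLOC_006642 had 246, 437 and 469 against 83.8, 44.2 and 32.8. The groups at 0 h and 4 h did not overlap for any of these. XLOC_026086 had 1151, 1281 and 2511 fragments at 0 h, 1006, 2346 and 1609 at 2 h, and 487, 209 and 101 at 4 h, so its level at 2 h was within the 0 h range apart from the lowest library. XLOC_022161 was different at 2 h: its 196, 139 and 144 fragments at 0 h were followed by 107, 37.1 and 53.2 at 2 h and 28.2, 24.5 and 25.5 at 4 h, with all 2 h libraries between the other groups. All 8 loci were 5.93-fold lower or more at 4 h in the means.

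**Figure D3:**
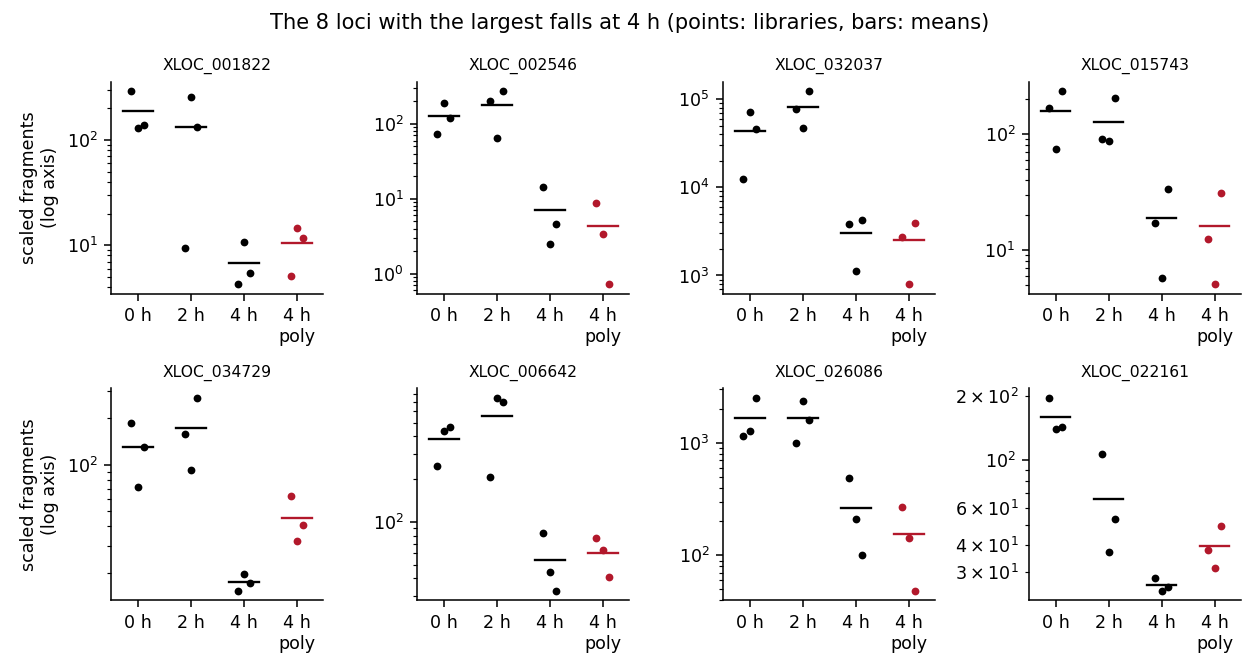
Scaled fragments (log axis, a separate scale in each panel) of the 8 members with the largest differences at 4 h, in total RNA at 0 h, 2 h and 4 h (black) and in polysomal RNA at 4 h (red); points are libraries and bars are means. Every 4 h point of total RNA lies below every 0 h point, and for XLOC_001822 one 2 h library has 9.47 fragments where the others have 259.6 and 135.

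The loci nearest the threshold showed differences close to 2-fold on both sides of it. Just inside, XLOC_009486 (log2 difference -1.01) had 522, 450.4 and 424 fragments at 0 h and 239, 216 and 239 at 4 h. XLOC_032340 (-1.01) had 199, 213 and 137 against 86.4, 83.4 and 102, and XLOC_001512 (-1.01) 116, 61.3 and 81.8 against 41, 33.5 and 52.8. Just outside, XLOC_014157 (-0.998), XLOC_006612 (-0.996) and XLOC_025474 (-0.992) had group means of 820.3, 124 and 432 at 0 h and 410.2, 61.6 and 217 at 4 h. Membership also depended on single livers. With each of the 9 total libraries left out in turn, 123 of the 215 loci met the rule every time and 92 failed it at least once. The 92 had a median log2 difference of -1.08 and the 123 one of -1.41, and 76 of the 92 lay within 0.2 of the threshold. The 92 also held loci far below it, among them XLOC_032037 (-3.83), XLOC_023115 (-2.096), XLOC_014838 (-2.004) and XLOC_033546 (-1.81). At 2 h these were higher, by 0.92, 0.56, 0.99 and 0.84. Without library 2 at 2 h, all 215 were still at least 2-fold lower at 4 h, but 208 met the rule. Which part of the rule each locus failed was not examined.

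For 7 members the libraries at 0 h and 4 h overlapped. The widest case, singled out after its values were seen, was XLOC_003389. It had 331, 171 and 155 fragments at 0 h and 4.28, 3.27 and 185 at 4 h, and in polysomal RNA at 4 h it had 2.94, 0.85 and 220.3. Library 3 thus stood at the 0 h level in both fractions while the other two were near 0. edgeR did not call it lower in total RNA at 4 h. The other members not called were XLOC_004975, XLOC_009186, XLOC_010338, XLOC_013328, XLOC_014924 and XLOC_034633.

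The rule also left out 9 loci that were at least 2-fold lower at 4 h but at least 2-fold higher at 2 h. The nearest to that limit, XLOC_030527, had 8175, 63448 and 33657 fragments at 0 h, 66077, 42777 and 112647 at 2 h, and 2362, 481 and 2139 at 4 h. Its log2 difference at 2 h was 1.07, just outside the limit, and that of XLOC_032037 was 0.92, just inside. The library order within each group was the same for both loci apart from libraries 1 and 3 at 4 h.

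At 2 h most of the loci were near their 0 h level, though a smaller share of them than of the base. The median log2 difference from 0 h was -0.15 for the members and 0.02 for the base loci, and 163 of the 215 (75.8%) lay between -0.5 and 0.5, against 94.5% of the base. The members were spread more widely than the base, with 5th and 95th percentiles of -0.91 and 0.56 against -0.33 and 0.43. A total of 137 members (63.7%) were below their 0 h mean, against 46.0% of the base, and 78 above it. By the means, 8 members (3.72%) were already at least 2-fold lower at 2 h, against 0.266% of the base loci. All 3 libraries at 2 h lay below all 3 at 0 h for 36 members (16.7%), against 6.85% of the base. They all lay above for 10 members (4.65%), against 10.4% of the base. The 2 h and 4 h differences share their 0 h libraries and are given side by side only.

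edgeR called 3 members (1.4% of those tested) lower at 2 h, against 0.0793% of all loci tested. The 0 h and 2 h libraries are among those that set the membership, so these calls are a description and their p-values are not given. XLOC_033923 had 168, 177 and 192 fragments at 0 h, 51.6, 36 and 90.5 at 2 h and 38.5, 25.4 and 36.4 at 4 h. Its 0 h libraries were close together, and the fitted log2 difference at 2 h was -1.60. XLOC_031148 had 965, 829 and 1271 fragments at 0 h, 401, 376 and 465 at 2 h and 464, 234 and 208 at 4 h (fitted log2 difference at 2 h -1.31). XLOC_000648, outside the rule for named loci and named because it was called, had 264, 202 and 236 fragments, then 90.5, 128 and 109, then 129, 73.6 and 68.3 (-1.11). The 2 h and 4 h libraries overlapped for all 3 of these loci. Without library 1 at 0 h, library 3 at 0 h or library 3 at 2 h, 1 member was called. With any other library left out, the count was 3 or 4.

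Among the 4 loci with the lowest log2 differences at 2 h, XLOC_002686 and XLOC_004782 were not called. XLOC_002686 had 82.1, 194 and 161 fragments at 0 h, 52.6, 55.6 and 65.6 at 2 h, and 53, 85.9 and 37.3 at 4 h, with a 4 h mean close to that at 2 h. XLOC_004782 had 184, 52.8 and 156 fragments at 0 h, where 1 liver was as low as the later ones, and 53.7, 45.8 and 61.1 at 2 h. In 24 members the 2 h log2 difference was at least 0.5 times the 4 h one, in the same direction. The share of base loci was not computed for this, so nothing is read from the count. In the 4 h against 2 h comparison edgeR called 120 of the 214 members tested (56.1%) lower, where 3.17% of all loci were called. All 3 libraries at 4 h lay below all 3 at 2 h for 178 members (82.8%), against 19.8% of the base. They lay below those at both earlier times for 176 members (81.9%), against 14.2% of the base. The 4 h libraries are those that chose the members, and nothing is read from these counts.

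At the other end, 16 members were between 0.5 and 1 higher at 2 h on the log2 scale before being lower at 4 h. XLOC_014838 had 301, 68.5 and 225 fragments at 0 h, 357, 348 and 476 at 2 h, and 48.7, 9.82 and 87.4 at 4 h. Every 2 h library exceeded every other library, while the lowest 0 h library fell within the 4 h range. XLOC_033546 had 159, 198 and 169 fragments at 0 h and 311, 154 and 481 at 2 h, and XLOC_004975 had 85, 131 and 114 and then 254, 84 and 243. In both, the second library at 2 h was lower than any at 0 h and the other two were above them all. In XLOC_033546 the 4 h libraries had 53, 34.4 and 60.1 fragments, and in XLOC_004975 they had 71, 53.2 and 38.2. The 16 loci had a median log2 difference of -1.64 at 4 h, against -1.18 for the 163 loci with little difference at 2 h and -1.57 for the 8 that were at least 2-fold lower at 2 h.

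Polysomal RNA at 4 h was measured in libraries that the rule did not use beyond the minimum mean. The median polysomal log2 difference of the members between 4 h and 0 h was -1.10, and that of the base loci 0.05. At least a 2-fold lower polysomal mean was seen in 133 members (61.9%), against 4.88% of the base loci. With a limit of 1.5-fold it was 192 members (89.3%) against 14.6%. The polysomal mean was lower at 4 h than at 0 h in 214 of the 215, against 46.8% of the base loci. Each polysomal library at 4 h showed it, with medians of -1.08, -1.27 and -1.14 against the 0 h mean and 123, 156 and 129 members at least 2-fold below that mean. With any 1 of the 3 left out the number of members at least 2-fold lower was from 126 to 141. Total and polysomal libraries of the same number deviated together from their group means, so the polysomal libraries are another fraction and are not counted as further animals. No test was made for polysomal RNA between times, because the single 0 h libraries could not be tied to the labels.

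The polysomal difference followed the size of the total one. Of the 18 loci with a total log2 difference of -2 or less, all 18 were at least 2-fold lower in polysomal RNA, with a median of -2.50. Of the 44 between -2 and -1.5, 39 were (median -1.47), of the 57 between -1.5 and -1.2, 37 were (median -1.10), and of the 96 above -1.2, 39 were (median -0.92). Across the 215 loci Spearman's rho between the 4 h differences in total and polysomal RNA was 0.592, over a range that the rule had cut at -1. It was 0.751 across the base loci. Loci are not independent, and total and polysomal libraries of the same number deviated together at 4 h, so these are descriptions.

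**Figure D4:**
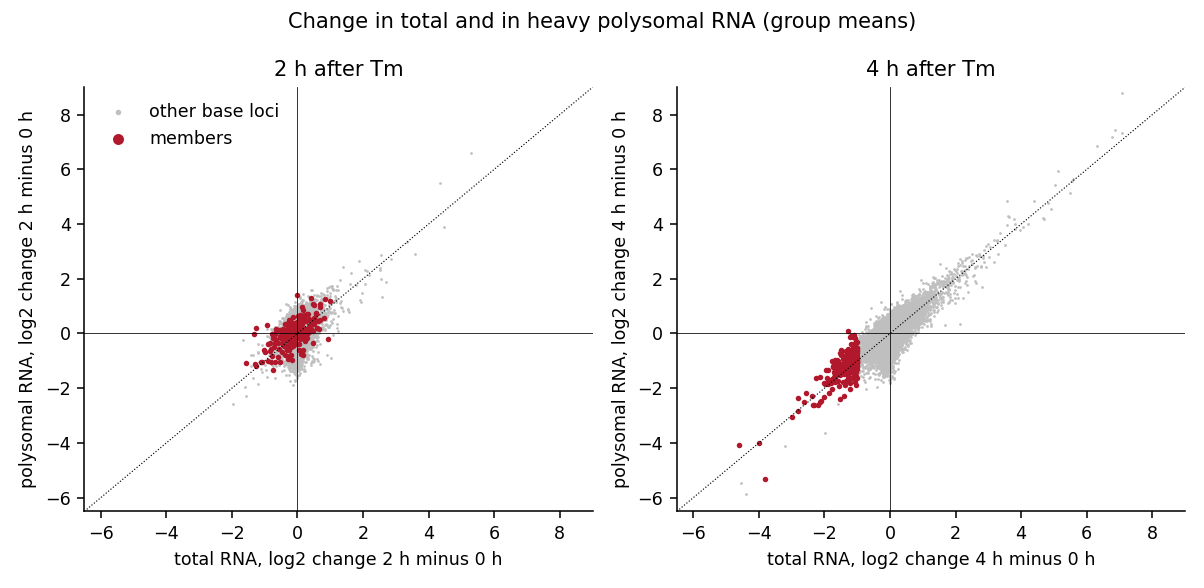
Log2 difference from 0 h in total RNA (x axis) and in heavy polysomal RNA (y axis) at 2 h (left) and 4 h (right) for the 215 members (red) and the other base loci (grey), from group means; the dotted line marks equal differences. At 2 h the members are centred near 0 on both axes (medians -0.15 and 0.03), and at 4 h they lie left of -1 by the rule with 214 of 215 below 0 in polysomal RNA.

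The lowest polysomal log2 differences at 4 h belonged to loci already named: XLOC_032037 (-5.33), XLOC_001822 (-4.07), XLOC_002546 (-4.02) and XLOC_015743 (-3.07). XLOC_001822 had a polysomal mean of 191 at 0 h and again 191 at 2 h, and 5.14, 14.5 and 11.6 fragments in the 3 libraries at 4 h. XLOC_002546 went from means of 85 at 0 h and 91.3 at 2 h to 8.81, 3.4 and 0.725. XLOC_015743 had means of 143 and 152 and then 12.5, 5.1 and 31.2. In none of these last 3 was the polysomal mean at 2 h below that at 0 h.

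The highest polysomal log2 differences at 4 h belonged to 4 loci. Their polysomal means at 0 h and 4 h were close while total RNA was lower. XLOC_017770 was the one member with a higher polysomal mean at 4 h: its means were 26.2, 71.1 and 27.8 at 0 h, 2 h and 4 h (log2 difference 0.08 at 4 h), while its total libraries held 118, 175 and 124 fragments at 0 h and 49.6, 58.1 and 63.7 at 4 h. XLOC_013914 had a polysomal mean of 132 at 0 h and 131, 109.7 and 144 fragments in the libraries at 4 h, where its total libraries held 103, 111 and 104. XLOC_032946 had a mean of 96.9 at 0 h and 84.4, 85.9 and 104 fragments at 4 h, and all 3 were above its total libraries of 40.2, 42.5 and 50.1. XLOC_025402 had a mean of 291 and then 308, 243 and 246.

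At 2 h polysomal RNA of the members was close to that of the base at the median. The median log2 difference was 0.03 against 0.06, and 105 of the 215 (48.8%) were below their 0 h mean, against 45.0% of the base loci. Setting the median of the base to 0 turned the members' median to -0.03, so no direction is given for it. At least a 2-fold lower mean was seen in 10 members, against 2.59%, and a 2-fold higher one in 7, against 1.88%. At 1.5-fold, 28 members were lower against 11.1% of the base and 21 were higher against 12.9%.

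The 2 h differences in polysomal RNA were ordered like those in total RNA. Of the 8 members at least 2-fold lower in total RNA at 2 h, 6 were at least 1.5-fold lower in polysomal RNA at 2 h, with a median of -1.05. Among the 28 with a log2 difference from -1 to -0.5, it was 9 (median -0.35), among the 163 in the middle 13 (median 0.06), and among the 16 from 0.5 to 1 none, while 7 of those 16 were at least 1.5-fold higher (median 0.55). The base loci in the same classes were ordered alike. At least 1.5-fold lower were 20 of 25, 47 of 166, 964 of 8863 and 6 of 261. Of those 261 base loci, 132 were at least 1.5-fold higher. The order is therefore not particular to the members. For XLOC_033923 the polysomal means were 226, 108 and 45.4 at 0 h, 2 h and 4 h, and for XLOC_031148 they were 982, 452 and 308, both following total RNA. XLOC_002686 and XLOC_004782 did not: their polysomal means were 33.5, 32.7 and 22.4, and 61.5, 71.7 and 37.4. XLOC_033546 was higher at 2 h in the means of both fractions, with polysomal means of 148, 353 and 41.5, and XLOC_014838 had 97.9, 226 and 18.6. Spearman's rho between the 2 h differences in both fractions was 0.575 across the members and 0.365 across the base.

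The polysomal over total ratio describes how much of the mRNA was in heavy polysomes relative to other loci. The members had a median log2 ratio of -0.07 at 0 h, 0.09 at 2 h and 0.15 at 4 h, where the base loci had -0.04, 0.00 and 0.00. The median change of the ratio from 0 h to 4 h was 0.17, against 0.06 for the base. The ratio was higher at 4 h than at 0 h in 154 members (71.6%), against 55.9% of the base loci. It was at least 1.5-fold higher in 31 (14.4%), against 3.41%, and at least 1.5-fold lower in 7 (3.26%), against 8.0%. The total means that chose the members also enter this ratio, so no direction is read from it.

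Single libraries allowed a test of the ratio at 4 h. edgeR called 3 of the 212 members tested (1.42%) lower in polysomal than in total RNA, against 3.18% of all 12575 loci tested. It called 8 (3.77%) higher, against 1.34%. With the library number as a block, which is a pairing of total and polysomal libraries, 6 were lower, against 3.4%, and 8 higher, against 1.49%. The total libraries at 4 h in this test are among those that chose the members, so the 2 directions cannot be weighed against each other here. For the same reason the calls are a description, and their p-values are not given. The 3 lower without the block were XLOC_016949, XLOC_002686 and XLOC_023115. XLOC_016949 had 434, 425 and 479 fragments in total RNA at 4 h and 211, 247 and 175 in polysomal RNA (log2 difference -1.08). XLOC_002686, at 53, 85.9 and 37.3 against 25, 25.5 and 16.7, had -1.40, and XLOC_023115, at 40.2, 32.7 and 46.4 against 24.2, 11.9 and 17.4, had -1.14. In each of the 3 no polysomal library reached a total one.

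The 8 higher were XLOC_014919, XLOC_014924, XLOC_027518, XLOC_028564, XLOC_030237, XLOC_031027, XLOC_032946 and XLOC_034729, with fitted log2 differences from 1.04 to 1.75. XLOC_031027, named for the largest of these, had 35.1, 30.3 and 49.2 fragments in total RNA at 4 h and 158, 96.9 and 129.7 in polysomal RNA. Its polysomal means were 399, 315 and 128 at 0 h, 2 h and 4 h, so it was high in polysomes relative to its total level of 106, 63.7 and 114 at 0 h too, and both fractions were lower at 4 h. XLOC_034729 had 15.4, 19.6 and 17.3 fragments against 63.1, 32.3 and 40.6 (1.38). The count of 8 was 5 without polysomal library 1 or total library 2 and 15 without polysomal library 2. The count of 3 was 5 without polysomal library 1 or total library 2. Over all 215 members, all 3 polysomal libraries at 4 h lay below all 3 total ones in 11 (5.12%), against 25.6% of the base loci. They lay above them in 50 (23.3%), against 22.8%.

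In level per length, the members were lower than the base at the median at 0 h, with an FPKM of 5.53 (quartiles 2.56 and 13.7) against 9.45 (3.96 and 25.7). At 4 h the medians were 2.49 and 10.4. In mean fragments over the 6 groups, 99 members (46.0%) were in the 25% of base loci with the lowest means and 36 (16.7%) in the 25% with the highest. Of the 215 members, 11 were among the 200 highest means of the 9383 base loci. The 95th percentile was higher for the members, at 6994 against 2934 in mean fragments. In FPKM at 0 h it was 417 against 172. The 4 h groups that chose the members are part of the mean over the 6 groups. The share of base loci that were members went from 4.32% for means of 50 to 100, through 3.07%, 1.62% and 1.16%, to 1.83% for means of 1000 and over. Relative length, estimated from fragments and FPKM at 0 h with the median base locus set to 1, had a median of 1.29, and 35 members were in the longest 10% of the base loci and 13 in the shortest 10%.

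The 6 members with the highest FPKM at 0 h were XLOC_032037, described above, and 5 others. XLOC_034655 had an FPKM of 4921 ± 1590 at 0 h and 1703 ± 281 at 4 h (SD, n = 3), with 60888, 87897 and 106955 scaled fragments at 0 h, 116094, 84982 and 153280.0 at 2 h and 30871, 25673 and 31309.6 at 4 h. XLOC_023233 had an FPKM of 2269.9 ± 798 and then 845 ± 43.5, with 13125, 27460.2 and 20783 fragments at 0 h, 28880.1, 17687 and 38187 at 2 h and 8060.4, 7082 and 8012 at 4 h. In both, libraries 1 and 3 at 2 h were above every 0 h library, and the 4 h libraries were close together and below all others. XLOC_009815 had an FPKM of 1650.0 ± 358 and then 739 ± 78.2, with 42182, 58208 and 54437 fragments at 0 h and 27526, 22638 and 22806 at 4 h. Its polysomal mean of 29898 at 0 h was followed by 54201 at 2 h and 22845 at 4 h. The polysomal log2 difference at 4 h was -0.39 where that in total RNA was -1.09.

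XLOC_033739 and XLOC_033740 carry consecutive numbers and had an FPKM of 1978 ± 919 and 3686 ± 1752 at 0 h, and 396 ± 294 and 719 ± 424 at 4 h. XLOC_033739 had 3846, 7539.9 and 9524 fragments at 0 h, 4099, 1455 and 7469 at 2 h and 2506, 668 and 905 at 4 h. XLOC_033740 had 3775, 6353 and 8564, then 4149.6, 1316 and 7243, then 2393, 783 and 911. The rank order of the 9 libraries was the same in both, apart from library 2 at 0 h and library 3 at 2 h. In polysomal RNA at 4 h they had 1244, 353 and 257, and 1182, 500.0 and 381 fragments. The members held 5 pairs of consecutive numbers in all. As the files give no positions or sequences, it was not tested whether such loci share reads.

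**Figure D5:**
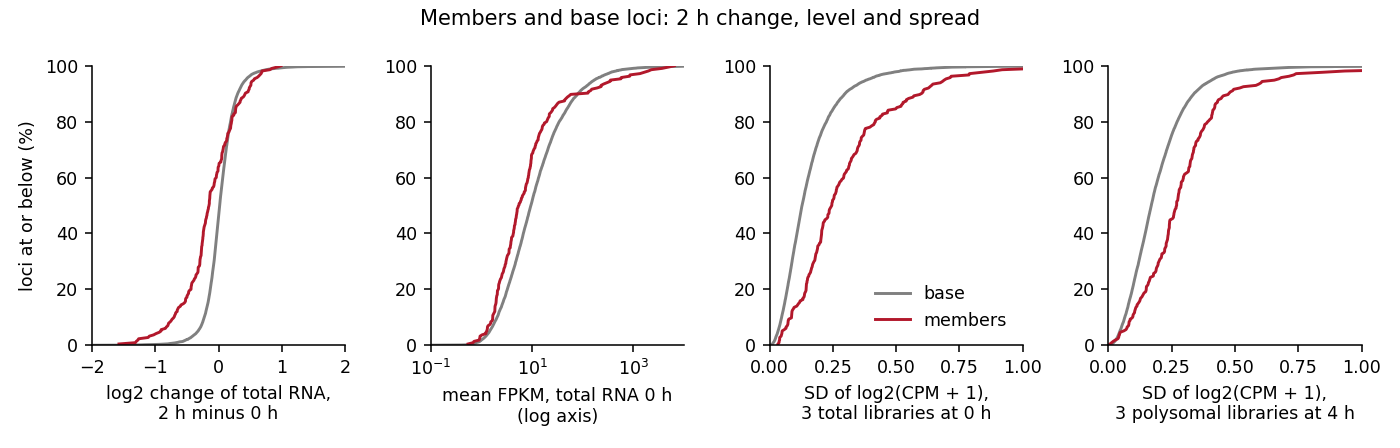
Cumulative share of loci (y axis, percent) at or below the value on the x axis for the 215 members (red) and the 9383 base loci (grey): total RNA log2 difference at 2 h, mean FPKM at 0 h (log axis), and the SD of log2(CPM + 1) over 3 libraries in total RNA at 0 h and in polysomal RNA at 4 h (axes end at 1). The members' 2 h curve is wider than that of the base, their FPKM is lower at the median (5.53 against 9.45), and their SD is larger in both fractions.

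The spread between libraries of the same group was wider for the members than for the base loci. The SD of log2(CPM + 1) over the 3 total libraries at 0 h had a median of 0.246 for the members and 0.128 for the base loci. At 2 h it was 0.267 against 0.157, at 4 h 0.242 against 0.121, and in polysomal RNA at 4 h 0.270 against 0.169. Of the members, 83 (38.6%) were in the 10% of base loci with the widest 0 h spread. The wider spread was not limited to low levels: in the band of means from 50 to 100 the median 0 h SD was 0.254 for the members and 0.193 for the base, and in the band of 1000 and over it was 0.307 against 0.100. The total libraries at 0 h, 2 h and 4 h set the membership, and the polysomal libraries at 4 h deviated together with the total ones. None of these spreads is therefore independent of the rule, and they are given as a description. The loci with a total log2 difference of -2 or less at 4 h had a median 0 h SD of 0.609, and those above -1.2 had 0.206.

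The widest 0 h spread was that of XLOC_013328, with 641, 84.7 and 558 fragments at 0 h, 893, 510.4 and 658 at 2 h, and 126, 254 and 150.3 at 4 h. The second 0 h library was below every 4 h library, and the other two were above them all. XLOC_032037 and XLOC_014838, described above, came next. XLOC_023115 had 86.9, 316 and 117 fragments at 0 h, 267, 132 and 367 at 2 h and 40.2, 32.7 and 46.4 at 4 h, so that even its lowest 0 h library was above those at 4 h. The SDs of these 4 were from 0.92 to 1.55.

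The narrowest were XLOC_001140, XLOC_032533, XLOC_025273 and XLOC_027450, with SDs from 0.0330 to 0.0392. XLOC_001140 had 141, 147 and 139 fragments at 0 h, 96.8, 129 and 133 at 2 h, and 54.7, 39.3 and 37.3 at 4 h. The 3 groups did not overlap, with the 2 h libraries below those at 0 h and the 4 h libraries below both. XLOC_032533 had 324, 319 and 334 fragments, then 239, 265 and 308, then 180.4, 143 and 156, in 3 groups that did not overlap. XLOC_025273 went from 83.1, 83.5 and 87 at 0 h through 71.5, 93.8 and 75.8 to 46.2, 38.5 and 39.2. XLOC_027450 went from 90.7, 88.9 and 84.9 through 72.6, 92.7 and 65.6 to 41.9, 46.6 and 41. In both of these the 2 h libraries spanned the 0 h values.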

How the data were processed

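Single-end stranded poly(A) libraries were aligned by the authors with TopHat2 2.0.13 to a transcriptome of GRCm38 and quantified with Cuffdiff of Cufflinks 2.2.1. The annotation release is not given in the sources used here. The authors deposited, per locus and read group, raw fragment counts, FPKM values and a signal of fragments divided by library size factors, with its mean per group. Of 81 read groups 12 were used and 69 were not, and of 27 group means 6 were used. The 10 h pool has its own locus numbers and was not used here. Libraries are numbered by read group, which the labels do not tie to single listed samples.

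Log2 differences are between group means plus 1. The test of counts was edgeR 4.0.16 under R 4.3.3 (TMM, filterByExpr, quasi-likelihood test, Benjamini-Hochberg adjustment over all loci, adjusted p under 0.05 and at least 2-fold): 9 total libraries in 1 model, and 3 total with 3 polysomal libraries at 4 h. The 54 loci without a complete estimate were left out, 1 of them a member. At 4 h, total and polysomal libraries of the same number deviated together (r from 0.345 to 0.384, while unlike numbers gave -0.26 to -0.0906). The labels do not state this pairing. The main fit of polysomal against total RNA did not use it, and only the fit with the library number as a block did. An adjusted p sets the difference between groups against the spread between libraries that the model estimates. Spread was computed on log2(CPM + 1) with TMM-scaled totals. Steps were tested on simulated data first. DESeq2 1.42.0 and the other alternatives are given in the closing section.

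Named loci are the 8 with the largest 4 h difference, the 6 with the highest FPKM at 0 h and 3 on each side of the threshold. The 4 lowest and 4 highest in 2 h difference, in 0 h spread and in polysomal difference at 4 h are named too. Others are said to be chosen after their values were seen or by a call. The members and lists were chosen with earlier results of these data known.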

Additional observations from a re-analysis of the deposited data

Results flagged for a closer look

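In 9 members every total library at 2 h lay above every one at 0 h, and every one at 4 h lay below, so the difference from 0 h had opposite signs at the 2 times. They were picked for this pattern after their values were seen, the difference between the times was not tested, and 91 base loci in all had it. The log2 difference at 2 h was 0.51 for XLOC_005076, 0.30 for XLOC_007053, 0.21 for XLOC_008576, 0.48 for XLOC_012743, 0.68 for XLOC_013997, 0.36 for XLOC_021275, 0.51 for XLOC_024459, 0.13 for XLOC_034688 and 0.67 for XLOC_036091. At 4 h the 9 loci were between -1.90 and -1.04. XLOC_036091 had 331, 524 and 475 fragments at 0 h, 691, 642 and 787 at 2 h and 103, 115 and 136 at 4 h, and its polysomal means were 361, 711 and 142. The polysomal mean at 2 h was above that at 0 h in all of these loci except XLOC_008576, where the log2 difference was -0.08.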

How the results depend on the processing

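The number of loci meeting the rule was 180 with a pseudocount of 8, 217 with TMM-scaled means (all 215 members among them) and from 204 to 272 with a total library left out. It was 432 with a minimum mean of 10 and 89 with one of 200. In total RNA at 2 h, 3 members were called lower by edgeR, 8 by DESeq2, 9 with all loci of at least 1 count, 5 with no minimum fold change, and from 1 to 4 with a library left out (1 without library 1 or 3 at 0 h or library 3 at 2 h). In polysomal against total RNA at 4 h, the 3 lower calls became 6 with all loci, 6 with the library number as a replicate block, 7 with no minimum fold change and 2 to 5 with a library left out (5 without polysomal library 1 or total library 2). The 8 higher calls became 34 with no minimum fold change and 5 to 15 with a library left out (15 without polysomal library 2, 5 without polysomal library 1 or total library 2). The cause of these shifts was not tested, apart from the thresholds and filters that change the count by their construction.

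Of the 133 members at least 2-fold lower in polysomal RNA at 4 h, 55 had a mean of at least 200. Of the 10 at 2 h, 3 did, and 28 passed at 1.5-fold. Setting the median of the base loci to 0 moved the median polysomal difference of the members at 2 h from 0.0314 to -0.0289. The other alternatives, 84 of 105, left their result within 1.5 times, or within the SD of the list's median between libraries. Among them, 167 to 195 members were called lower at 4 h against 0 h with a library left out. The mice were culled at each time, so the numbers of total libraries at different times do not pair animals. The same number gave r from -0.0183 to 0.298, the highest for library 3 at 2 h against 0 h. Unlike numbers gave -0.241 to 0.171. The replicate block gave 210 members lower at 4 h against 0 h, 4 at 2 h against 0 h and 117 at 4 h against 2 h. Depth limits the lowest loci: the 4 h libraries of XLOC_002546 held from 2.45 to 14.5 scaled fragments.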
